A study of Mus musculus with 12 samples.

Results

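The podocyte genes described here are Nphs1, Magi2, Ptpro, Plce1, Podxl, Synpo and Wt1, 7 genes chosen by name as markers of the glomerular podocyte. All 7 of the 7 named genes were found by symbol among the 11614 genes deposited for kidney cortex, and none had to be left out for low values. Podocytes are the epithelial cells that wrap the capillaries of the glomerulus. Their interlocking foot processes are bridged by the slit diaphragm, a cell junction that holds back plasma protein, and loss of its parts causes protein in the urine. The cells are anchored to the glomerular basement membrane, rest on an actin cytoskeleton and depend on the transcription factor Wt1 to keep their identity.

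The study sequenced RNA of kidney cortices from C57BL/6J mice, with 12 libraries in 4 groups of 3. NASH (non-alcoholic steatohepatitis, fatty and inflamed liver) was brought about by a Western diet (WD) with the liver toxin carbon tetrachloride (CCl4). The groups were NASH mice at 12 weeks, control mice given normal diet and corn oil at 12 weeks, NASH mice at 24 weeks, and control mice given normal diet and corn oil at 24 weeks. The labels list 6 NASH and 6 control mice at 12 weeks and 10 NASH and 8 control mice at 24 weeks, males and females in equal number. All animals were of 1 strain with no engineered allele named. Neither the sex behind a library, nor whether a library is 1 animal or a pool, nor what the replicate numbers 1, 2 and 3 stand for is stated, so p-values measure the spread between these samples.

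Values are the log2 values deposited by the authors, which on the linear scale behave as read counts multiplied by 1 factor per library. The depth recovered from the steps between low values ran from 7170000 to 14100000 reads, and the lowest was that of the NASH library numbered 2 at 12 weeks. In every group the library numbered 1 stood apart from the libraries numbered 2 and 3. Xist, the RNA of the inactive X chromosome, was at log2 10.60 to 11.54 in the 4 libraries numbered 1 and at 2.97 to 4.86 in the other 8. The Y-linked gene Ddx3y was at 2.48 to 4.25 in the libraries numbered 1 and at 8.95 to 9.62 in the others. Kap, the androgen-driven kidney gene, was at 12.39 to 16.87 against 18.21 to 19.23. Slc34a1, the phosphate transporter that marks cortical proximal tubule, was high in every library, at 16.33 to 16.93.

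The 4 members that belong to the slit diaphragm and the foot process membrane have different tasks. Nphs1 encodes nephrin, whose extracellular chains span the slit between foot processes. The gene lies at chr7:30460058-30488609 on the plus strand of mm10. At 12 weeks Nphs1 stood at log2 10.21, 9.04 and 8.43 in NASH libraries 1, 2 and 3, and at 9.68, 9.11 and 8.68 in control libraries 1, 2 and 3. At 24 weeks Nphs1 stood at 10.36, 8.95 and 9.22 in NASH libraries, and at 9.92, 8.54 and 8.74 in control libraries. The library numbered 1 was the highest of each group, and NASH and control libraries overlapped at both times. The antisense gene Nphs1os overlaps Nphs1 on the other strand, and since the strand setting of the counting is not given in the sources used here, reads of both cannot be told apart.

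Magi2 encodes a scaffold protein that binds nephrin from the inside of the slit diaphragm. Its deposited model covers chr5:19907518-20704792 on the plus strand. Magi2 was at 7.25, 6.14 and 6.01 in NASH libraries 1, 2 and 3 at 12 weeks, against 7.91, 6.79 and 6.70 in control libraries. Corresponding values at 24 weeks were 7.27, 6.09 and 6.34 in NASH libraries and 7.45, 6.57 and 6.64 in control libraries. Each NASH library was lower than the control library of the same number, in 6 of 6 such pairs, while the groups overlapped when numbers were ignored. Magi2 rested on 36 to 223 reads a library, and at 36 reads counting error alone has an SD of 0.24 on the log2 scale. A pattern of 6 lower pairs of 6 was shared by 7.65% of all 11614 genes.

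Ptpro encodes GLEPP1, a receptor tyrosine phosphatase on the apical face of the foot processes (chr6:137252299-137464633, plus strand). Ptpro was at 9.29, 8.01 and 7.67 in NASH libraries 1, 2 and 3 at 12 weeks, against 8.88, 8.33 and 7.76 in control libraries. The 24-week values of Ptpro were 9.12, 7.92 and 7.88 in NASH libraries and 8.73, 7.61 and 7.60 in control libraries. All 3 NASH libraries at 24 weeks were above the control library of the same number, yet the groups overlapped. Plce1 encodes phospholipase C epsilon, a signalling enzyme whose loss in humans causes early nephrotic syndrome (chr19:38524197-38785100, plus strand). Plce1 was at 8.44, 7.89 and 8.12 in NASH libraries at 12 weeks and at 8.77, 8.34 and 8.30 in control libraries. At 24 weeks it was at 8.56, 8.16 and 8.13 in NASH libraries and at 8.61, 8.03 and 7.79 in control libraries. Plce1 varied least of the 7 genes, with an SD within groups of 0.24 to 0.42.

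Podxl encodes podocalyxin, the negatively charged sialomucin that keeps neighbouring foot processes apart, and is also made by vascular endothelium (chr6:31519493-31563937, minus strand). At 12 weeks Podxl was at 12.85, 11.57 and 11.35 in NASH libraries 1, 2 and 3, against 12.71, 12.08 and 11.85 in control libraries. At 24 weeks Podxl was at 13.07, 11.53 and 11.62 in NASH libraries and at 12.83, 11.32 and 11.31 in control libraries. The library numbered 1 was at 12.71 or above in all 4 groups and the other 8 libraries did not exceed 12.08. Synpo encodes synaptopodin, the actin-bundling protein of the foot process cytoskeleton (chr18:60593990-60624305, minus strand). Synpo was at 9.87, 8.50 and 8.57 in NASH libraries at 12 weeks and at 9.44, 8.81 and 8.55 in control libraries. At 24 weeks Synpo was at 9.85, 8.48 and 9.26 in NASH libraries and at 10.03, 9.01 and 8.30 in control libraries. Its pairs went both ways at 24 weeks, with the NASH library above control by 0.96 for number 3 and below it by 0.53 for number 2 (difference -0.53).

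Wt1 encodes the zinc finger transcription factor that drives podocyte genes and is also present in parietal cells of the glomerular capsule (chr2:105126529-105173614, plus strand). Wt1 was at 8.51, 7.31 and 6.92 in NASH libraries 1, 2 and 3 at 12 weeks, against 8.32, 7.73 and 7.35 in control libraries. Values of Wt1 at 24 weeks were 8.43, 7.82 and 7.46 in NASH libraries and 8.03, 7.01 and 7.36 in control libraries. NASH and control values overlapped at both times.

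**Figure D1:**
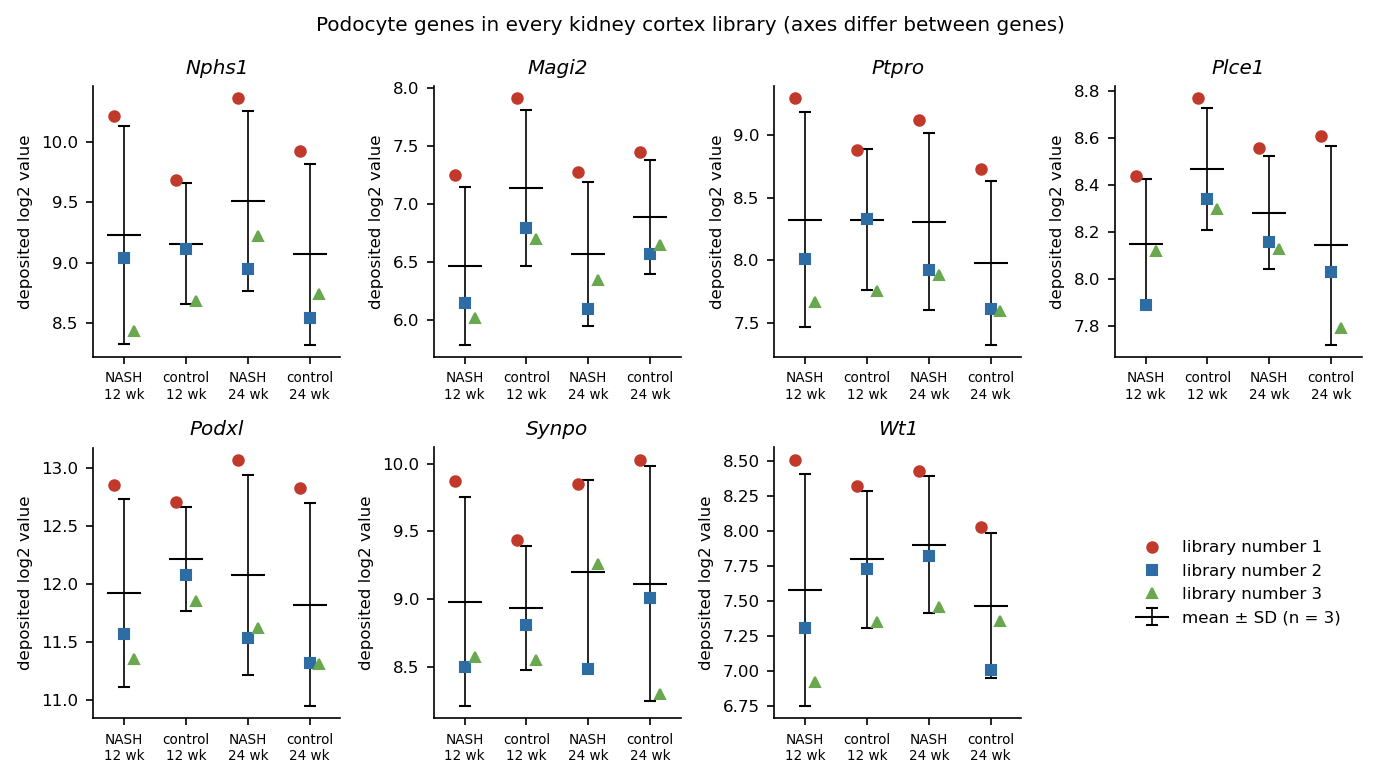
Deposited log2 values (vertical axes, which differ between genes) of the 7 podocyte genes in the 12 libraries, by group on the horizontal axis, with NASH left of its control. Symbols mark the library number, and bars give the group mean ± SD (n = 3). In every panel the 4 circles, the libraries numbered 1, lie above the other 2 libraries of their group.

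Corrected for length, the genes spanned a wide range of abundance. On the scale of scaled reads per kilobase of transcript, Podxl was the most abundant at 858 ± 423 (SD over 12 libraries). Nphs1 followed at 118 ± 57.8 and Synpo at 116 ± 51.8, a gap far smaller than either SD. Wt1 was at 71.1 ± 27.3 and Ptpro at 49.6 ± 22.9 scaled reads per kilobase. Both genes moved together across the 12 libraries (r = 0.94), so these SDs do not measure the spread of the gap between them. At 12 weeks Wt1 was at 69.3 against 54.7 for Ptpro in NASH and at 74.9 against 50.7 in control libraries (group means). At 24 weeks it was at 80.5 against 52.0 in NASH and at 59.7 against 40.9 in control libraries. Plce1 was at 32.9 ± 6.88 and Magi2 lowest at 18.1 ± 8.09. The deposited values of Synpo, Magi2 and Ptpro stand for 2, 3 and 4 transcripts each, which the authors joined to 1 value per gene by a rule not given in the sources used here.

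The promoter sequences of 3 members are shown as background, since WT1 is a known regulator of podocyte genes such as Nphs1. A link between promoter sequence and the variation across libraries was not tested. They were taken from RefSeq on GRCm38.p6, in windows of 300 bases around annotated starts, all on the plus strand and written 5′ to 3′. Capitals mark matches, on either strand, to the core GTGGGNG that WT1 shares with EGR factors and to the homeobox core TAATTA bound by factors such as LMX1B. The windows were chr7:30459808-30460107 for Nphs1, chr5:19226796-19227095 and chr5:19907268-19907567 for an upstream and a downstream start of Magi2, and chr6:137252049-137252348 for Ptpro.
Nphs1: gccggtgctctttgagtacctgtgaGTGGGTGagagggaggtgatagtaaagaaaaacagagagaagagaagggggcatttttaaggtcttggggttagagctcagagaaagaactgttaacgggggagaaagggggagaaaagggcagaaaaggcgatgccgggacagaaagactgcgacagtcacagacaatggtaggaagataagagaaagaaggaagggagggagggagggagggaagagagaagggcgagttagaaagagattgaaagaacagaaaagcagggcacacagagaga
Magi2 upstream start: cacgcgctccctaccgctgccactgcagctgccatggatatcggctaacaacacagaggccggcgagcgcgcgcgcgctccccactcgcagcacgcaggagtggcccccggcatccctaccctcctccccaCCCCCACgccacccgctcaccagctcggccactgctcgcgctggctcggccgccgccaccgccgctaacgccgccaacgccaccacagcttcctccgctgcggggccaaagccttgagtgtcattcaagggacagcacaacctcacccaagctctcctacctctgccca
Magi2 downstream start: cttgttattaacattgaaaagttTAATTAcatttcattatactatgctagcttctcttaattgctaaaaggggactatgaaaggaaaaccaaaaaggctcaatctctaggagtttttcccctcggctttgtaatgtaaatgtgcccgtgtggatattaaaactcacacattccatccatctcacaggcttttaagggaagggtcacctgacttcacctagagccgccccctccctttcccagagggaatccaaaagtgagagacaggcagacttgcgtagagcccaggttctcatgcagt
Ptpro: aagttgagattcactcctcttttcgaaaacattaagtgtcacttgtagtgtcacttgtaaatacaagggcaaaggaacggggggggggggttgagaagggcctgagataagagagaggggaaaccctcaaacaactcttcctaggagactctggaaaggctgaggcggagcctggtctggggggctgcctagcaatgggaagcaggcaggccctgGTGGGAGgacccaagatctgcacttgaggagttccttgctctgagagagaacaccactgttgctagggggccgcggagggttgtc
The GTGGGNG core occurred once in the Nphs1 window, at position -225 from the start, once in the upstream Magi2 window at -119 and once in the Ptpro window at -35. Across 32544 promoter windows of the same length, 31.6% held this core. The downstream Magi2 window held TAATTA at -227, a sequence found in 5.29% of windows, and no GTGGGNG. The Plce1 window, not printed, held neither. The E-box CANNTG, bound by helix-loop-helix factors such as the podocyte factor TCF21, was found 3 times for Ptpro, 1 time in each Magi2 window and for Plce1, and 0 times for Nphs1, against 72.3% of all windows with at least 1. The forkhead core TAAACA was in none of these 5 windows and in 13.4% of all. Windows for Synpo, Podxl and Wt1 were not used here. A match is a stretch of letters and was not tested as a binding site.

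The question of the study's design is whether kidney cortex differs between NASH and control mice at either time. None of the 7 podocyte genes passed the test in any NASH comparison when library numbers were left out of the model. With limma over all 12 libraries and Benjamini-Hochberg adjustment over 11614 genes (called at an adjusted p under 0.05), 0 of 7 were called at 12 weeks, where 0.0517% of all genes were, and 0 of 7 had an unadjusted p under 0.05, which 14.5% of all genes had. The 12-week log2 changes ran from -0.66 for Magi2 to 0.07 for Nphs1, with a median of -0.22 against -0.08 over all genes. At 24 weeks 0 of 7 were called, none of them at an unadjusted p under 0.05, against 0.0% of all genes called and 2.99% at an unadjusted p under 0.05. Changes there ran from -0.32 for Magi2 to 0.44 for Nphs1 with a median of 0.26, against 0.01 over all genes, and 6 of 7 were above 0. Standard errors of 0.24 to 0.54 in this fit leave room for changes of either sign, and missing the threshold does not show that levels were alike. In bulk tissue, fewer podocytes and less RNA per podocyte cannot be told apart.

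Libraries numbered 1 deviated together from their group means (r of 0.548 to 0.742). Those numbered 2 correlated with those numbered 3 at a median r of 0.365. That was close to the median of 0.40 for 2 with 2 and of 0.434 for 3 with 3. Pairing within numbers 2 and 3 was therefore not shown, and same-numbered pairs are descriptive there. A model with the number as a block narrowed the standard errors to 0.13 to 0.23. Magi2 then fell at 12 weeks, by a log2 change of -0.66 (SE 0.18, limma adjusted p = 0.0373), 1.58-fold lower in NASH. It was the 1 member of 7 called, in a fit that called 12.9% of all genes and 9.85% as lower. Averaged over both times Magi2 fell by a log2 change of -0.49 (SE 0.12, limma adjusted p = 0.0351), lower in 6 of 6 pairs, with 10.4% of all genes called and 7.36% lower. Under quantile normalization with the block the call was lost, at -0.55 (limma adjusted p = 0.0997) at 12 weeks and -0.45 (0.0676) averaged. After removal of each library's trend on GC content and length it was lost too, at -0.45 (limma adjusted p = 0.167) at 12 weeks and -0.34 (0.164) averaged, and so it was at 12 weeks without any one of the 12-week libraries (limma adjusted p = 0.0806 to 0.107). Over all genes at 12 weeks the quantile fit called 1230 and the fit with the trend removed 615, against 1494 with the block alone. Fits without a 12-week library called 253 to 1103.

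The other 6 members missed the threshold with the block at 12 weeks. Plce1 came nearest, at a log2 change of -0.32 (SE 0.13, limma adjusted p = 0.115), with the NASH library lower in 3 of 3 pairs. Podxl was at -0.29 (SE 0.16, limma adjusted p = 0.237), with differences of -0.51 and -0.50 in the pairs numbered 2 and 3 and of 0.14 in the pair numbered 1. In the libraries numbered 2 and 3 alone, with the block, Podxl was called lower at -0.50 (limma adjusted p = 0.0415) and Magi2 was not (-0.67, 0.158), in a fit that called 5.44% of all genes. Nphs1, Ptpro and Synpo were likewise higher in NASH for the pair numbered 1, by 0.53, 0.41 and 0.43, and at -0.07, -0.31 and -0.31 for the pair numbered 2.

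At 24 weeks with the block, 0 of 7 members were called, as were 0.00861% of all genes. Nphs1 had a log2 change of 0.44 (SE 0.19, unadjusted p = 0.0415, limma adjusted p = 0.503) and was higher in NASH in 3 of 3 pairs, by 0.43, 0.41 and 0.49. Wt1 had the same change of 0.44 (SE 0.19, unadjusted p = 0.0446, limma adjusted p = 0.508), with pairs of 0.40, 0.81 and 0.10. An unadjusted p under 0.05 was reached by 9.68% of all genes in this fit. Ptpro and Podxl were also higher in 3 of 3 pairs, at 0.33 and 0.26 on average, and did not pass the test. The share of all genes with 3 of 3 pairs in 1 direction at 1 time was not determined, so such counts are descriptive only. Magi2 was the 1 member below 0 on average, at -0.32 (limma adjusted p = 0.586).

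**Figure D2:**
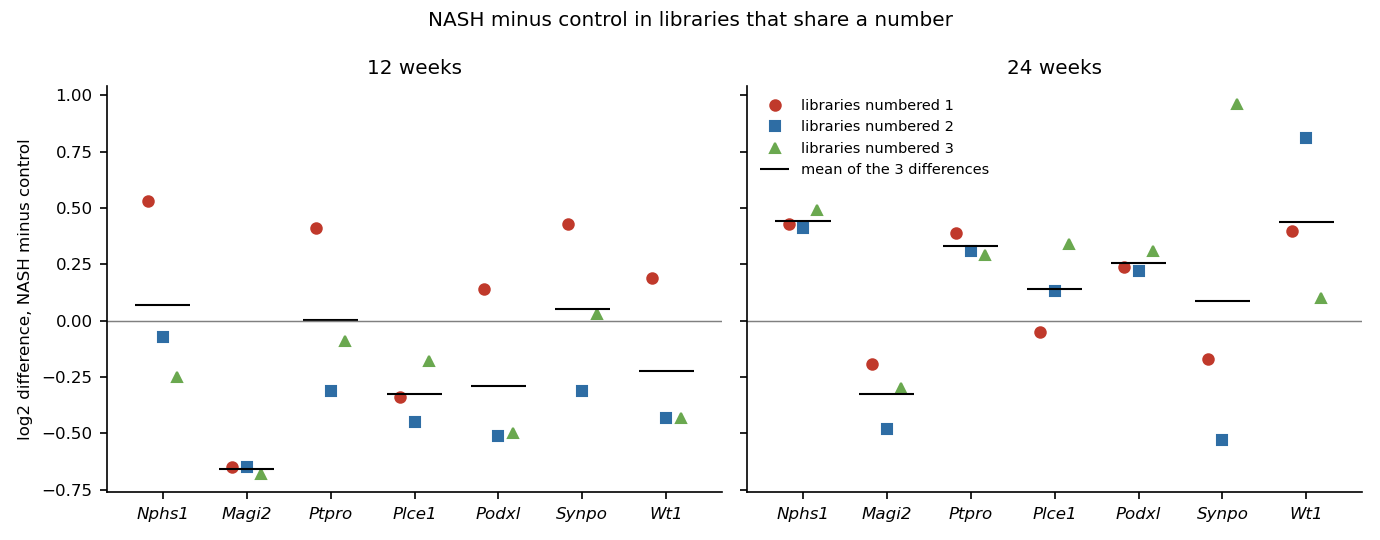
Difference in log2 value, NASH minus control, between libraries that share a number, for each podocyte gene at 12 weeks (left) and 24 weeks (right). Symbols mark the library number and the black line the mean of the 3 differences. Magi2 lies below 0 in all 6 differences, from -0.68 to -0.19, while Nphs1, Ptpro, Podxl and Wt1 lie above 0 in all 3 differences at 24 weeks. The share of all genes above 0 in all 3 was not determined.

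The change of the NASH effect between the times was tested directly. It was above 0 for 7 of 7 members (24 minus 12 weeks), from 0.04 for Synpo to 0.66 for Wt1, with a median of 0.37 against 0.09 over all genes, of which 62.3% were above 0. None passed limma's test with the block (lowest adjusted p = 0.324, that of Plce1), where 0.00861% of all genes were called, or without it, where 0.0% were. At an unadjusted p under 0.05 the block gave 3 members, Plce1, Podxl and Wt1, where 12.8% of all genes passed, and the fit without it 0, where 3.66% did. Between 24 and 12 weeks, the change in control mice was below 0 for 6 of 7 members, with a median log2 change of -0.32 (lowest -0.39, Podxl), against a median of -0.08 over all genes, of which 37.2% were above 0, and 0 of 7 were called with the block (0.172% of all genes) or without (0.0%). In NASH libraries 6 of 7 were above 0, with a median of 0.15 against 0.02 over all genes, of which 54.0% were above 0, and 0 of 7 were called with the block (0.0258% of all genes) or without (0.0%). Podxl in controls was called lower at 24 weeks when the libraries numbered 1 were left out (log2 change -0.65, limma adjusted p = 0.014 without the block), in a fit that called 6.5% of all genes. The members deviated together from their group means, at a median r of 0.92 over 21 pairs of members. Counts of members in 1 direction, here and for NASH against control, are therefore not independent.

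Magi2 also parted from the other podocyte genes within a library, a pattern singled out after its values were seen and given with no test. The log2 value of Magi2 minus the mean of the other 6 members was -2.60, -2.58 and -2.49 in NASH libraries 1, 2 and 3 at 12 weeks, against -1.73, -2.28 and -2.05 in control libraries. At 24 weeks it was -2.63, -2.72 and -2.59 in NASH libraries, against -2.24, -2.02 and -1.87 in control libraries. NASH and control did not overlap at either time, and the NASH range of -2.72 to -2.49 lay below the control range of -2.28 to -1.73. Group means differed by -0.54 at 12 weeks and by -0.60 at 24 weeks, against SDs of 0.06 and 0.28 (NASH and control) and of 0.07 and 0.18. Of the 11607 genes that are not members, 54, or 0.465%, lay lower relative to the members' mean in NASH without overlap at both times. Of the other 6 members, each taken minus the mean of the rest as Magi2 was, Synpo did not overlap at 12 weeks. There it lay higher in NASH (0.37 ± 0.17) than in control libraries (0.08 ± 0.03, SD, n = 3 each). At 24 weeks Synpo overlapped. The share of all genes that separate at 12 weeks alone was not determined. The groups stayed apart after removal of the GC and length trend (-0.45 and -0.57) and with any of the other 6 members left out (-0.58 to -0.50 at 12 weeks and -0.64 to -0.57 at 24 weeks), settings chosen after seeing the data. With 1 library left out the difference ran more widely, from -0.67 to -0.40 at 12 weeks and from -0.70 to -0.52 at 24 weeks.

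**Figure D3:**
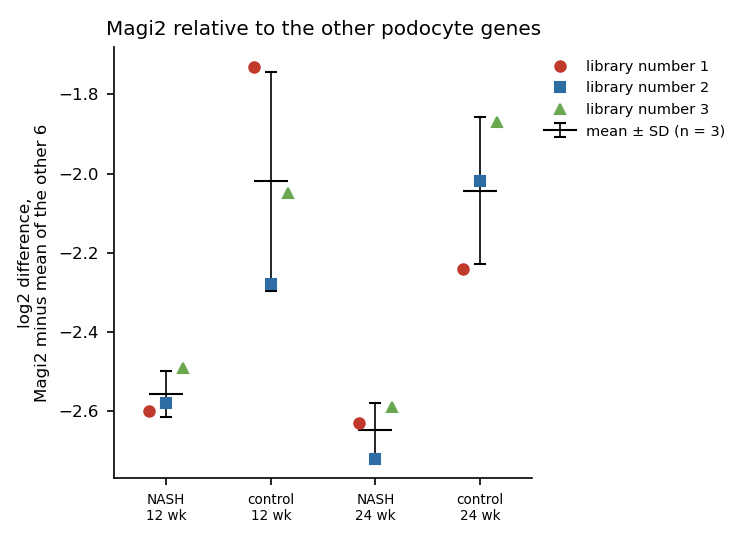
Log2 value of Magi2 minus the mean log2 value of the other 6 podocyte genes in each library (vertical axis), by group on the horizontal axis with NASH left of its control. Symbols mark the library number and bars the group mean ± SD (n = 3). The 6 NASH libraries lie at or below -2.49 and the 6 control libraries at or above -2.28.

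The difference that ran through all 7 members was that between library numbers. Every member was higher in the library numbered 1 than in both others of its group, in 4 of 4 groups, and no library numbered 2 or 3 reached the lowest library numbered 1 of any group. Such a separation was found for 15.0% of all genes. In the model with the block the log2 difference, libraries numbered 1 minus those numbered 2 and 3, was 1.29 (SE 0.12) for Podxl, 1.20 (0.14) for Nphs1 and 1.16 (0.12) for Ptpro. It was 1.11 (0.18) for Synpo, 1.06 (0.13) for Magi2, 0.95 (0.14) for Wt1 and 0.50 (0.10) for Plce1. All 7 were called, with limma adjusted p from 2.57e-05 for Podxl to 0.00189 for Plce1. The same fit called 47.3% of all genes, 37.3% as higher, so that a call by itself was common. The split of calls moved with the scaling, from 4330 higher of 5489 to 2316 of 4642 under quantile normalization (19.9% of all genes higher) and 2423 of 4845 under median-of-ratios scaling (20.9%). The median over all genes was shifted by 0.198, a shift that quantile normalization set to -0.003. Relative to it the members' median of 1.11 was larger, and all 7 stayed called under quantile normalization with a median of 0.92. After removal of the GC and length trend Plce1 was at 0.19 and not called (limma adjusted p = 0.094).

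The gap was present in each group but not equal. For Nphs1 the library numbered 1 exceeded the mean of the others by 1.47 in NASH libraries at 12 weeks and by 0.78 in controls at 12 weeks. At 24 weeks the gap of Nphs1 was 1.27 in NASH and 1.29 in control libraries. The 12-week controls also had the smallest gap for Podxl (0.75), Synpo (0.75) and Ptpro (0.84), against 1.39, 1.33 and 1.45 in NASH libraries at 12 weeks. Magi2 had gaps of 1.18 in NASH and 1.16 in control libraries at 12 weeks. The difference of gaps between groups was not tested.

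**Figure D4:**
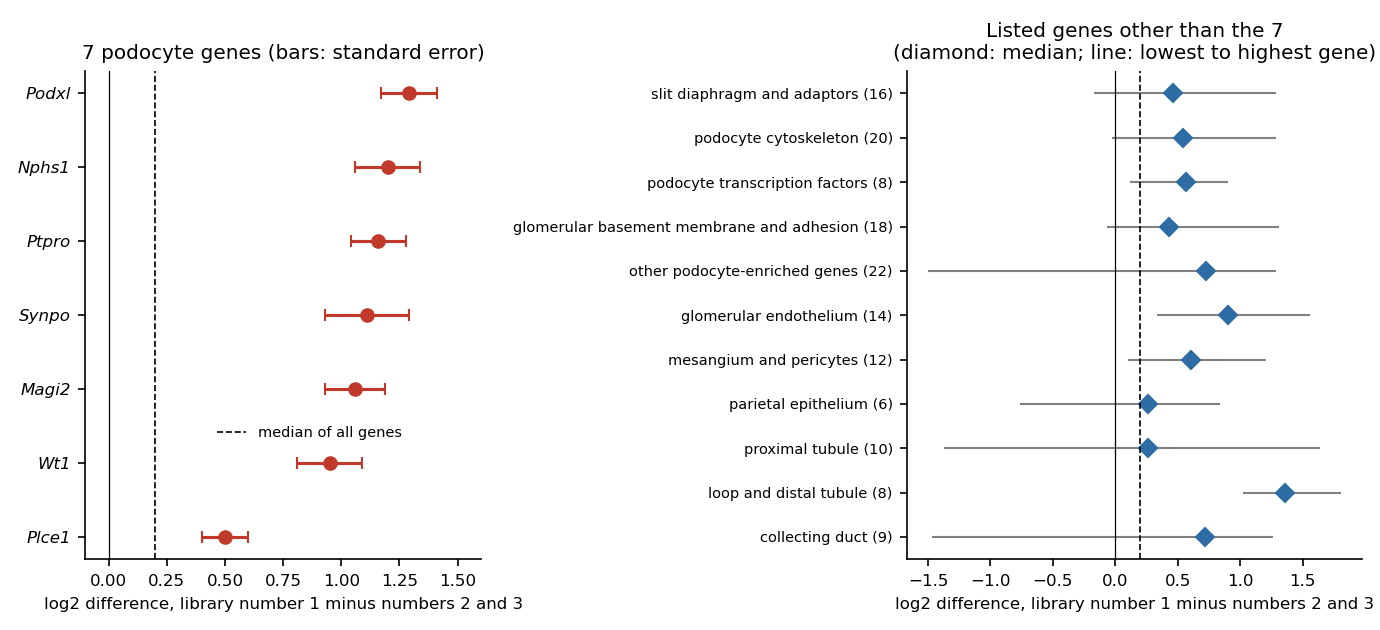
Log2 difference between libraries numbered 1 and those numbered 2 and 3 (horizontal axes) for the 7 podocyte genes (left, points with standard errors) and for listed genes of each cell type other than the 7 (right, median as a diamond and the lowest to highest gene as a line, number of genes in brackets). The dashed line is the median of all genes, 0.198. Podxl, Nphs1, Ptpro, Synpo and Magi2 lie above 1, and so does the median of the loop and distal tubule list, 1.36.

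Other genes of the podocyte lists moved with the library number to differing degrees. Thsd7a, which encodes an antigen of membranous nephropathy, rose by 1.29 (limma adjusted p = 7.44e-06). The transcription factor Tcf21 rose by 0.90, and Ddn, which encodes the protein dendrin, by 0.92, both called. Rhpn1, another podocyte gene, was at -0.11 and not called (limma adjusted p = 0.564), and Angptl4 was called lower at -1.50. Of listed genes that are not members, 12 of 16 slit diaphragm genes, 14 of 20 cytoskeletal genes, 6 of 8 transcription factors, 14 of 18 basement membrane genes and 16 of 22 other podocyte-enriched genes were called higher, against 37.3% of all genes. Their median differences were 0.46, 0.54, 0.57, 0.43 and 0.73. Angptl4 was the 1 gene called lower in these 5 lists, and 1 of the genes called higher stands in 2 of them. The counts depended on the scaling. Under median-of-ratios scaling 7, 12, 3, 8 and 12 genes of these lists were called higher, with medians of 0.26, 0.34, 0.38, 0.24 and 0.54, against 20.9% of all genes.

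Genes of neighbouring cell types were also called between library numbers. In the glomerular endothelium list 11 of 14 genes were higher with a median of 0.90, among them Kdr, the VEGF receptor, at 1.56 and Ehd3 at 1.19. Mesangial and pericyte genes were higher in 6 of 12 with a median of 0.61, and neither list had a gene called lower. Among tubule lists, all 8 loop and distal genes were higher with a median of 1.36, led by the calcium-binding protein gene Calb1 at 1.81, and 6 of 9 collecting duct genes with a median of 0.72, where Fxyd4 was called lower at -1.47. Proximal tubule genes were called higher in 5 of 10 and lower in 1, Slc22a6 at -1.37, with a median of 0.26. Parietal epithelium genes were called higher in 2 of 6 and lower in 1, Krt8 at -0.76, also with a median of 0.26. Under quantile normalization the medians were 0.74 for endothelium, 0.29 for mesangium, 1.31 for the loop and distal list, 0.42 for proximal tubule and -0.07 for parietal epithelium, where 1 gene was then called higher and 2 lower. With median-of-ratios factors the proximal list had 2 called higher and 2 lower, with a median of 0.06, and the parietal list 1 higher and 2 lower, with a median of 0.07. The mean deviation of the loop and distal list ran from 0.70 to 1.14 in libraries numbered 1 and from -0.83 to 0.04 in the others, with no overlap, and that of the endothelial list from 0.23 to 0.88 and from -0.97 to 0.24. No listed marker was at 0 in any library. The part of these cell types in the members' difference was not tested. Sex-linked expression and the library number coincided in 12 of 12 libraries and cannot be told apart.

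Between NASH and control at 12 weeks, the median log2 change was -0.21 for the endothelial list, 0.05 for the mesangial list and 0.21 for the parietal list, against -0.22 for the 7 members. It was -0.2 for the proximal tubule list, -0.25 for the collecting duct list, 0.04 for the loop and distal list and -0.08 over all genes. The mean of the 14 endothelial genes, as a deviation from each gene's mean over 12 libraries, ranged from -0.43 to 0.52 in NASH libraries and from -0.06 to 0.24 in control libraries at 12 weeks. Its range was -0.35 to 0.75 in NASH and -0.97 to 0.88 in control libraries at 24 weeks. The same mean over the 7 members was -0.09 ± 0.72 in NASH and 0.11 ± 0.48 in control libraries at 12 weeks, and 0.09 ± 0.60 in NASH and -0.11 ± 0.63 in control libraries at 24 weeks (SD, n = 3 each). By library number it was 0.69 ± 0.07 in the 4 libraries numbered 1 and -0.35 ± 0.19 in the other 8.

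Across the 12 libraries the 7 genes varied together, largely along the library number. Pearson's r between members had a median of 0.84 over 21 pairs, from 0.73 for Nphs1 and Plce1 to 0.96 for Podxl and Ptpro. In the 8 libraries numbered 2 and 3 the median was 0.35, from -0.06 for Wt1 and Synpo to 0.82 for Podxl and Ptpro. Nphs1, Ptpro, Podxl and Wt1 kept r between 0.56 and 0.82 with each other there. Synpo and Magi2 had no r above 0.46 with any member in those 8 libraries. Plce1 lay in between, at 0.75 with Podxl and 0.49 with Ptpro, but at 0.36 with Wt1 and 0.15 with Nphs1. These correlations describe libraries that share depth, scaling and number, and carry no test.

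**Figure D5:**
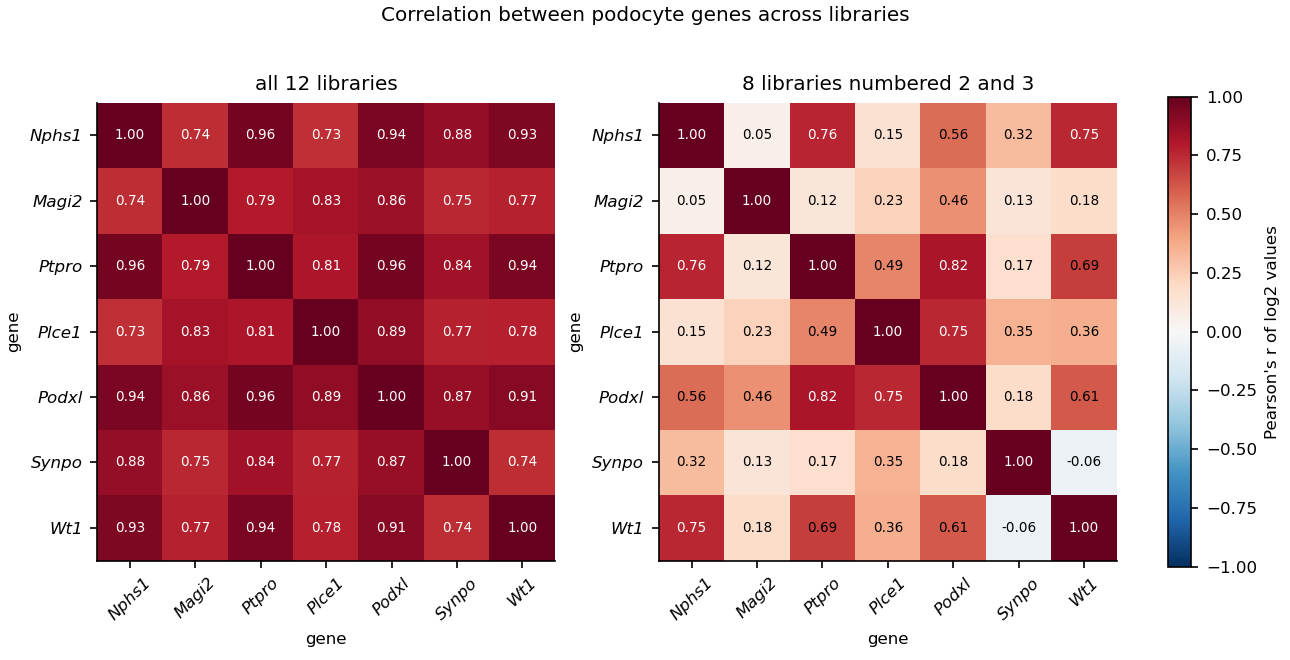
Pearson's r of deposited log2 values between each pair of podocyte genes, over all 12 libraries (left) and over the 8 libraries numbered 2 and 3 (right), on a colour scale from -1 to 1. All pairs are at 0.73 or above on the left. On the right Nphs1, Ptpro, Podxl and Wt1 keep higher values with each other than Synpo and Magi2 have. Plce1 ranges there from 0.15 with Nphs1 to 0.75 with Podxl.

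Among the genes whose pattern was most like the mean of the 7 members over 12 libraries were Myom2 (r = 0.984), Fam65a (0.981), Shmt1 (0.980) and Lyplal1 (0.978). Among the 11607 genes that are not members, 299, or 2.58%, reached an r of at least 0.9. Lyplal1 was most like both Podxl (0.981) and Ptpro (0.978), Stn1 most like Wt1 (0.964), Fanca most like Synpo (0.979), Hook3 most like Magi2 (0.972) and Rin2 most like Plce1 (0.975). The ranking was not stable. Of the 50 most similar genes, 17 were among the 50 most similar by Spearman's rho over the same 12 libraries, 21 after subtraction of group means, and 4 in the 8 libraries numbered 2 and 3.

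Other genes of the podocyte lists were called between NASH and control about as often as all genes. In whole cortex their reads cannot be assigned to a cell type, so these calls are not changes located to podocytes. In the fit with the block at 12 weeks, the 5 podocyte lists held 83 genes other than the members, of which 12, or 14.5%, were called, 11 of them lower, against 12.9% of all genes called and 9.85% lower. In that fit 2 of 16 slit diaphragm genes other than the members were called, both lower. They were Prkci, a polarity kinase, at -0.54 (limma adjusted p = 0.0191) and Cd2ap, the adaptor between nephrin and actin, at -0.36 (0.0374). Of 20 cytoskeletal genes 2 were called lower, Arhgap24, a Rac regulator, at -0.60 (0.0148) and Vcl, vinculin, at -0.37 (0.0397). Kirrel, which encodes the nephrin-like protein Neph1, was at 0.00 at 12 weeks, and Actn4, an actin crosslinker, at -0.28 (limma adjusted p = 0.113). List medians at 12 weeks were -0.15 and -0.22, against -0.08 over all genes.

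Of 8 genes in the transcription factor list other than Wt1, 3 were called lower at 12 weeks with the block, in the fit that called 12.9% of all genes. Zhx3 was at -1.13, Zhx1 at -0.55 and Tead1 at -0.69 (limma adjusted p = 0.0314, 0.0148 and 0.0285). Of 18 basement membrane and adhesion genes 2 were called lower, Col4a4, a chain of the mature basement membrane collagen, at -0.67 (0.0166) and Npnt, nephronectin, at -0.71 (0.0435). Col4a4 stood at 10.88, 10.63 and 10.63 in NASH libraries 1, 2 and 3 at 12 weeks, against 11.44, 11.15 and 11.56 in control libraries. These did not overlap, and the share of all genes without overlap at 12 weeks was not determined. Of 22 other podocyte-enriched genes, Pdpn, podoplanin, was called higher at 0.62 (0.0385), and Ildr2 and Enpep were called lower at -0.71 and -0.37 (0.0189 and 0.0448). Vegfa, the podocyte-made growth factor of the glomerular endothelium, was at -0.23 (limma adjusted p = 0.316). In the parietal list of 6, Cldn1, claudin 1, was called lower at -1.16 (0.00453) and Krt8, keratin 8, higher at 0.48 (0.0470). Endothelial and mesangial lists had 0 called of 14 and of 12. Kdr, the endothelial receptor for Vegfa, was at -0.85 (limma adjusted p = 0.0949).

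None of these 14 called genes was called without the block, and 2 of 14, Arhgap24 and Cldn1, were called after removal of the GC and length trend. Over all genes these fits called 6 and 615 at 12 weeks, against 1494 in the blocked fit. Under the block with quantile normalization 10 of 14 stayed called, and with median-of-ratios scaling 11 of 14. Those 2 fits called 1230 and 1379 of all genes. Cldn1 was the 1 gene of the 14 that stayed called with every library left out in turn. At 24 weeks 0 genes were called in any of the podocyte, endothelial, mesangial and parietal lists with the block. Averaged over both times with the block, 7 of the 83 listed podocyte genes, or 8.43%, were called, 5 lower and 2 higher, against 10.4% of all genes. Those called lower were Col4a4 at -0.52, Zhx1 at -0.34, Zhx3 at -0.73, Vcl at -0.26 and Enpep at -0.27 (limma adjusted p = 0.0154 to 0.0462). Cdkn1c, a cell cycle inhibitor of mature podocytes, was called higher at 0.59 and Pdpn at 0.43 (limma adjusted p = 0.0418 and 0.0459), and in the parietal list Cldn1 was called lower at -0.48 (0.0253). Without the block 0 of the 83 were called.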

How the data were processed

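RNA from kidney cortex was sequenced in 12 libraries of 4 groups of 3. BWA, limma and the mm10 genome are named in the submitters' processing notes, and their versions and roles are not given in the sources used here. What the authors deposited is 1 normalized log2 value for each of 11614 genes and each library, per the column headers, and every gene reaches 100 scaled reads in at least 1 library, so a filter on low values had been applied before deposition. In the libraries, between 85.8% and 91.8% of low values, those under 60 steps, were whole multiples of 1 step per library within 0.01 steps. That step gave an estimate of 7170000 to 14100000 reads a library over the deposited genes. Reads of genes removed before deposition are not in this estimate. The log2 values were used as they are. Members rested on 36 (Magi2) to 7647 (Podxl) reads in a library, so counting error bears most on Magi2.

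The 4 group means of every gene were estimated together from the 12 libraries, by limma 3.58.1 (R 4.3.3) with a mean-variance trend. Tests were 2-sided and adjusted by Benjamini-Hochberg over 11614 genes. Libraries of the same number deviated together from their group means, with r of 0.187 to 0.742 over 18 same-numbered pairs, and so the fit with the number as a block is printed where it changes a call. Libraries numbered 2 correlated with those numbered 3 about as well, at 0.187 to 0.637, so these values do not show that numbers 2 and 3 pair across groups. GC content of the deposited transcripts was known for 99.7% of genes and for all 7 members. Alternatives were other scalings, removal of each library's trend on GC content and length, other filters, the libraries numbered 2 and 3 alone, and each library left out. The fits were tested on simulated data. Figures were drawn with matplotlib 3.10.9 in Python 3.11.15.

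The 7 members, the 12 lists of other genes and the tests were chosen with earlier results of these data known. All members are named. In each list the counts are given, and the genes named are those with the smallest p for the NASH contrasts, with Cd2ap, Actn4, Kirrel, Vegfa, Xist, Ddx3y and Kap always given and Tcf21, Ddn, Thsd7a, Rhpn1, Angptl4 and Slc34a1 picked after their values were seen. A few named genes are not reported here. Listed genes that are not among the deposited genes (Kirrel2, Kirrel3, Anln, Avil, Synpo2, Lmx1b, Foxc2, Foxd2, Hoxc8 and Tsix) were not analysed here. Gene coordinates come from the deposited mm10 columns, with 1 added to each start.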

Additional observations from a re-analysis of the deposited data

How the results depend on the processing

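Without the replicate block 0 of 7 members were called in the NASH comparisons, and with it 1, Magi2, at 12 weeks and averaged over both times. That count went to 0 for both under the block with quantile normalization, with median-of-ratios scaling (limma adjusted p of Magi2 = 0.0658 and 0.0505) and with the GC and length trend removed, and for the average in the libraries numbered 2 and 3 alone. At 12 weeks the first 3 of these fits called 1230, 1379 and 615 of all genes, against 1494 with the block alone. With each library left out of the block fit, the count was 0 to 1 at 12 weeks, where Magi2 also missed the threshold without the 24-week control library numbered 3 (limma adjusted p = 0.0525), and 0 in 12 of 12 fits averaged. Podxl was the 1 member called at 12 weeks without the 12-week control library numbered 1. For 24 against 12 weeks in controls the count was 1, Podxl, in the libraries numbered 2 and 3 alone, with and without the block, and 0 to 1 with each library left out of the block fit. In the libraries numbered 2 and 3 alone the 12-week changes of Nphs1, Synpo and Ptpro turned to -0.16, -0.14 and -0.20. The averaged change of Podxl turned to 0.025 under median-of-ratios scaling, with and without the block, and to 0.084 with the trend removed, and that of Plce1 to 0.11. None of these turned values was called. The ranges that follow pool, for each gene, 24 fits that leave out 1 library, with and without the block. Without the block, leaving out a library can also give the compared groups unequal shares of libraries numbered 1. Over these fits the 12-week changes ranged from -0.42 to 0.47 for Nphs1, -0.69 to 0.11 for Wt1, -0.40 to 0.30 for Synpo and -0.48 to 0.33 for Ptpro. At 24 weeks they ranged from -0.24 to 0.76 for Podxl, -0.32 to 0.54 for Synpo, -0.078 to 0.70 for Ptpro and -0.038 to 0.38 for Plce1. Averaged they ranged from -0.26 to 0.24 for Podxl, -0.13 to 0.27 for Wt1, -0.16 to 0.30 for Synpo, -0.076 to 0.35 for Ptpro and -0.18 to 0.027 for Plce1. The block changed no other call of a member, and the cause of these changes was not tested.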

Other observations

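Outside the glomerulus, the cortex libraries also held tubule genes that differed between NASH and control at 12 weeks in the blocked fit. The list of 8 genes for the loop and distal tubule had 3 called lower, in a fit that called 12.9% of all genes and 9.85% as lower: Calb1, calbindin, at a log2 change of -1.15, Trpv5, a calcium channel, at -0.89, and Slc12a3, the thiazide-sensitive salt transporter, at -0.66 (limma adjusted p = 0.0255, 0.0442 and 0.0236). Calb1 stood at 12.62, 11.02 and 11.14 in NASH libraries 1, 2 and 3, against 13.48, 12.48 and 12.30 in control libraries, so that NASH library 1 overlapped the control range. Of 9 collecting duct genes, Aqp2, the vasopressin-regulated water channel, was called higher at 1.46 (limma adjusted p = 0.0270) and Slc26a4, pendrin, lower at -0.53 (0.0449). Aqp2 was at 11.11, 11.32 and 11.96 in NASH libraries and at 9.68, 10.78 and 9.57 in control libraries. Its groups did not overlap, and how many of all genes did not was not determined. Proximal tubule genes had 0 called of 10, with a median of -0.20. After removal of the GC and length trend Slc12a3 and Calb1 stayed called and the other 3 did not, and with each library left out in turn none of the 5 kept its call in all 12 fits. Over all genes the fit with the trend removed called 615 and the fits with 1 library left out 253 to 1533, against 1494. Under quantile normalization and under median-of-ratios scaling, Slc12a3, Calb1 and Aqp2 stayed called, and Trpv5 and Slc26a4 did not. Those fits called 1230 and 1379 of all genes. Without the block, where 0.0517% of all genes were called at 12 weeks, none of these 5 genes was called. At 24 weeks none was called in either fit. The 5 sex-linked genes had 0 called at 12 weeks, with a median of -0.38.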
